A study of Mus musculus with 16 samples.

Results

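Small non-coding RNA of the common lymphoid progenitor (CLP) was compared with that of the granulocyte-monocyte progenitor (GMP). These populations were chosen by the cell type given in the labels, and they contribute 4 of 16 libraries, 2 of each. Both were sorted from bone marrow of wild-type mice, with no treatment named, and the ages of the animals are not given in the sources used here. The sort used antibodies to lineage proteins, to the progenitor markers c-Kit, Sca-1, Flk2 and CD34, and to CD16/32, CD127 and CD49b. The other 12 libraries are 2 each of the common myeloid progenitor (CMP), the megakaryocyte-erythroid progenitor (MEP), and B, T, Myeloid and Erythroid cells. The messenger RNAs of the sorting proteins are not measured here, so the gates could not be checked by them. The question is how far the small RNA profile of a progenitor with lymphoid potential differs from that of a progenitor with granulocyte and monocyte potential.

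CLPs give rise to B, T and natural killer cells, and GMPs to granulocytes and monocytes. Most RNAs measured are small nucleolar RNAs (snoRNAs). C/D snoRNAs, named for their boxes C and D, guide 2'-O-methylation of ribosomal and spliceosomal RNA, and H/ACA snoRNAs guide pseudouridylation. A few, such as U3, U8 and U17, instead take part in cleavage and folding of the ribosomal RNA precursor. In mammals most are cut from introns of host genes, many of which encode ribosomal proteins or translation factors.

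The sequences of the RNAs on which the comparison turned are given first. They are from GENCODE M21 on GRCm38, 5' to 3'. Gm25117 and Gm25291 are shown since they are similar copies with the largest falls in CLP among features of at least 10 CPM (counts per 1e6 counts of the library) on average. Capitals mark the bases at which they differ, 11 of 144, for an identity of 92.4%. Gm25117 (ENSMUSG00000087819) lies in an intron of Nap1l1 at chr10:111481493-111481636 on the plus strand, and Gm25291 in an intron of Sec24a at chr11:51737779-51737922 on the minus strand.
Gm25117: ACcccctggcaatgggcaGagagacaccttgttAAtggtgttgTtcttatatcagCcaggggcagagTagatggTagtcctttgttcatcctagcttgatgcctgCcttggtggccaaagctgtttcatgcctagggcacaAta
Gm25291: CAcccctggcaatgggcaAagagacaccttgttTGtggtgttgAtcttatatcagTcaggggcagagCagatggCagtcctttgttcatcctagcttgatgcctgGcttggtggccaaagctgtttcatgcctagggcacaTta

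Gm25835 and Snord123 are shown since they have no similar copy and changed in opposite directions. Snord118 and the U3 copy Rnu3b2 stand for the snoRNAs that process ribosomal RNA. Snord34 and Snord32a are neighbours in 1 host gene. Capitals mark box C as TGATGA within the first 26 bases and box D as CTGA within the last 20, searched on the RNA strand alone. Among the 164 C/D snoRNAs tested 59.8% held TGATGA there and 98.2% held CTGA, against 0.917% and 8.26% of H/ACA snoRNAs. SnoRNAs whose name gave no class were put in the C/D class by boxes of this kind, so these shares follow in part from the classing. A match is a description of the letters only. Gm25835 (ENSMUSG00000089542) lies in an intron of Eif4a1 at chr11:69668852-69668995, minus strand, and Snord123 (ENSMUSG00000089317) in an intron of Snhg18 at chr15:32241853-32241923, minus strand. Snord118 is at chr11:69073427-69073561, plus strand, and Rnu3b2 (ENSMUSG00000098925) in an intron of Tex14 at chr11:87471368-87471582, plus strand. Snord34 and Snord32a are in introns of Rpl13a at chr7:45126601-45126670 and chr7:45127382-45127464, minus strand.
Gm25835: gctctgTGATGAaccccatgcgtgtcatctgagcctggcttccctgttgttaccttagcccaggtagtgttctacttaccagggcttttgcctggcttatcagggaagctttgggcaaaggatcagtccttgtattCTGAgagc
Snord123: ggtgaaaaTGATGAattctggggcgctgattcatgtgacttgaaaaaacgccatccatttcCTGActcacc
Snord118: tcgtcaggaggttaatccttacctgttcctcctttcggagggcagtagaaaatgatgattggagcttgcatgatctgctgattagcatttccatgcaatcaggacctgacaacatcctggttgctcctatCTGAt
Rnu3b2: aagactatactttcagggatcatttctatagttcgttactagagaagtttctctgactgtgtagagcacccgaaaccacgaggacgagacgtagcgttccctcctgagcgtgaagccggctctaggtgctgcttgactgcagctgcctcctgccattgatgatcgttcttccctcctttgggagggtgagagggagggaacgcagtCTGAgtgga
Snord34: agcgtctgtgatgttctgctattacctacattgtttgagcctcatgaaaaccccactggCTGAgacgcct
Snord32a: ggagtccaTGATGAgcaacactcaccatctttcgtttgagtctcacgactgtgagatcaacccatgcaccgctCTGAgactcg

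Total counts were 20608796 and 41799906 in the CLP libraries and 14164782 and 14520518 in the GMP libraries. Nothing in the labels ties a pair of libraries to separate animals, so p-values reflect the spread between these libraries, which may be technical. The GMP libraries stood apart from each other. Over 749 features the profile nearest to GMP 1 was CLP 1 (Spearman 0.975) and that nearest to GMP 2 was CLP 2 (0.9758), while the GMP pair reached 0.9671 and the CLP pair 0.9834. The SD of the log2 ratio within the pair, over 312 features of at least 10 CPM, was 0.53 in GMP and 0.145 in CLP. MicroRNAs (miRNAs) took 0.711% of counts in GMP 1 and 1.64% in GMP 2, and 0.939% and 1.03% in CLP. The median miRNA was 1.07 higher in GMP 2 than in GMP 1 on the log2 scale (203 miRNAs), against -0.03 for 304 snoRNAs. Counts below are therefore also given without single libraries where that changes them.

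In all, 749 features could be tested, and 52 of them (6.94%) differed at an adjusted p below 0.05. Of these, 10 (1.34%) were higher in CLP and 42 (5.61%) were lower. Adjusted p values come from the quasi-likelihood test of edgeR and the Benjamini-Hochberg method over the 749 features, and levels are CPM after scaling of library sizes by the trimmed mean of M values method (TMM). Most differences were small: 37 of the 52 were within 2-fold. The libraries of CLP and GMP did not overlap for all 52, but they also did not overlap for 308 of the 749 features (41.1%). The median difference of all features was -0.12 on the log2 scale. This was the fewest calls of the 28 pairs of populations, with GMP against MEP next at 57 and CLP against MEP at 61, while CLP against T gave 357. These counts were not tested against each other.

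The split between higher and lower depended on the scaling. It was 6 to 13 with relative log expression (RLE) factors, which shift the median of all features from -0.12 to 0.04. It was 23 to 39 with library totals and 21 to 35 with TMM factors from snoRNAs and scaRNAs. The number of calls also rested on single libraries: it was 2 without CLP 1, 3 without CLP 2, 38 without GMP 1 and 13 without GMP 2. Gm25117 and Snord123 passed in all 4 of these fits. With the 4 libraries of CLP and GMP fitted by themselves, 1 of 622 features passed, Gm25117. Of the 52, 26 were among the calls without GMP 1 and 11 among those without GMP 2, and every other call named below was lost without CLP 1 and, except Gm25291, without CLP 2. With counts of similar or overlapping intervals summed, 4 of 509 units passed: the Gm25117 family, the U3 family, Gm25835 and Snord123. In bulk samples fewer cells of a type and less RNA per cell cannot be told apart.

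**Figure D1:**
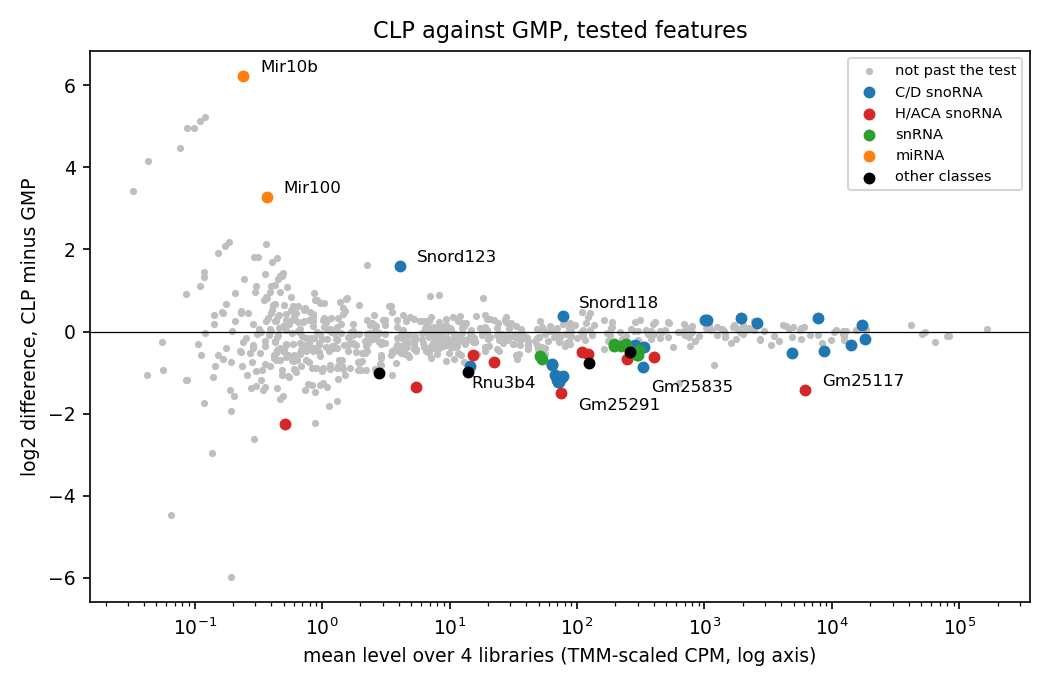
Difference between CLP and GMP (log2, vertical axis) against the mean level over the 4 libraries (CPM, log axis) for the tested features. The 52 that passed the test are coloured by class and the leading ones named; 42 of them lie below 0, and Gm25117 combines a high level with a large difference.

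H/ACA snoRNAs took a smaller share of counts in CLP, and 1 of them, Gm25117, made up most of the gap. H/ACA snoRNAs took 0.558% and 0.506% of counts in CLP against 1.05% and 1.3% in GMP, and the other populations ranged from 0.821% to 1.19% in the mean. Gm25117 alone took 0.372% ± 0.0292 (SD, n = 2) in CLP and 0.96% ± 0.16 (SD, n = 2) in GMP. Without it the class took 0.161% ± 0.00764 in CLP and 0.215% ± 0.0105 in GMP. The ratio of GMP to CLP thus moved from 2.21 to 1.34. Shares are given as a description and were not tested.

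Gm25117 reached 3568 and 3185 CPM in the CLP libraries and 8165 and 9884 in the GMP libraries. Both CLP libraries were far below both GMP libraries. The level was 2.67-fold higher in GMP (log2 difference -1.42 ± 0.104 SE, adjusted p = 2.55e-05). It passed under all 18 alternatives in which it could be tested (-1.43 to -1.15). CLP had the lowest mean of the 8 populations and passed as lower against each of the other 7. MEP was next at 5785 ± 416 CPM (SD, n = 2), then Myeloid at 7880 ± 214, CMP at 8547 ± 116.3 and GMP at 9024 ± 1216. GMP passed against neither CMP, Myeloid nor Erythroid cells (10540 ± 1443), and B (12210 ± 261.8) and T cells (12520 ± 336.1) were highest.

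The similar copy Gm25291 followed the same pattern at a far lower level. Its values were 38.2 and 41.0 CPM in CLP against 94.0 and 128.8 in GMP (log2 difference -1.49 ± 0.167 SE, adjusted p = 0.000798). Its counts were 1.07% and 1.29% of those of Gm25117 in CLP and 1.15% and 1.30% in GMP, so reads of Gm25117 placed on this copy and RNA of the copy itself cannot be told apart. A further copy, Gm23123, had 4 and 8 counts in CLP and 14 and 12 in GMP. Summed over the 10 intervals of the family, the difference was -1.35 ± 0.131 (adjusted p = 0.000131).

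Among the 109 H/ACA snoRNAs tested, 10 (9.17%) passed as lower in CLP and 0 as higher, beside 5.61% of all features called lower. The 10 include the similar copies Gm25117, Gm25291 and Gm23123, which are not independent. With families summed, 1 H/ACA unit passed as lower. Of the 109 snoRNAs, 81 lay below 0, with a median of -0.28 beside -0.12 for all features. At an unadjusted p below 0.05 there were 19 lower and 3 higher, and DESeq2 called 5 lower and 1 higher. Leaving out CLP 1, CLP 2, GMP 1 or GMP 2 left 1, 2, 3 and 2 lower. The examples that follow, except Gm24044, were chosen after their values were seen. Snora44 and Snora61, which share the host gene Snhg12, differed by -0.74 (adjusted p = 0.0299) and -0.55 (adjusted p = 0.012), calls lost in 11 and 8 of 18 alternatives. Snora43 read 190.9 and 188.3 CPM in CLP and 278.2 and 324.6 in GMP, so that the groups did not overlap (log2 difference -0.67, adjusted p = 0.0133), a call lost in 9 of 18 alternatives. Its highest mean was in MEP at 590 CPM and its lowest in T cells at 24.1, so CLP and GMP both lay in its upper range. Gm24044 of Rpsa differed by -0.56 (adjusted p = 0.0307).

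Small RNAs that take part in ribosomal RNA processing were mostly lower in CLP, through U3. Of 19 such intervals, 11 (57.9%) passed as lower in CLP and 1 (5.26%) as higher, beside 5.61% and 1.34% of all features. Their median was -0.80, but 10 of the 11 are copies of U3. U3 binds the precursor of ribosomal RNA and is needed for the cleavages that free the small subunit RNA. Without CLP 1 or CLP 2 none of the 19 passed, without GMP 1 there were 10 lower, and without GMP 2 there were 2.

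The 8 Rnu3b intervals lie as overlapping pairs within Tex14 and are similar copies, so they are not independent. Rnu3b2 (ENSMUSG00000098925) read 43.3 and 42.8 CPM in CLP against 75.3 and 118.8 in GMP. The GMP libraries differed from each other by more than either CLP library from the other, but both were above both CLP libraries. The difference was -1.17 ± 0.18 (SE, adjusted p = 0.00497), -0.80 without GMP 2 (adjusted p = 0.0303) and -1.34 without GMP 1 (adjusted p = 0.000452). Without CLP 1 or CLP 2 it was -1.06 and -1.09 and no longer passed (adjusted p = 0.141 and 0.125). All 8 intervals passed, with differences from -1.23 to -1.05.

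Rnu3a, the copies on chromosome 10, differed less. The interval ENSMUSG00000065870 read 48.1 and 44.7 CPM in CLP and 72.2 and 88.9 in GMP (log2 difference -0.80, adjusted p = 0.0073). Summed as a family, 16 Rnu3b-like intervals read 391.6 and 378 CPM in CLP and 630.4 and 954.9 in GMP (-1.04 ± 0.194, adjusted p = 0.0284). The 2 Rnu3a intervals summed gave -0.73 (adjusted p = 0.0545), short of the threshold. CLP held the lowest mean of Rnu3b2 in the 8 populations, with Myeloid cells next (48.5 CPM) and not different from it (adjusted p = 0.524).

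U8, encoded by Snord118 and needed for processing of the large subunit RNAs, went the other way. It read 86.3 and 87.6 CPM in CLP and 66.2 and 67.9 in GMP. Each pair was tight and the pairs did not overlap (log2 difference 0.38 ± 0.0853 SE, adjusted p = 0.0216). GMP had the lowest mean of the 8 populations and passed as lower than each of the other 7. The call did not hold without CLP 1, CLP 2 or GMP 2, where the difference was 0.51, 0.43 and 0.40 (adjusted p = 0.141, 0.263 and 0.114).

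U17, an H/ACA snoRNA encoded by Snora73a and Snora73b, read 351.5 and 278.2 CPM in CLP and 485.5 and 478.4 in GMP from Snora73a (-0.61 ± 0.163, adjusted p = 0.0456), a call lost in 14 of 18 alternatives. Snora73b was at -0.43 and did not pass (adjusted p = 0.279). U13 (Snord13), which assists acetylation of the small subunit RNA, read 186.8 and 171.2 CPM in CLP and 151.7 and 141.7 in GMP (0.29, adjusted p = 0.261). The 4 U14 intervals lay between -0.10 and 0.08 and Snord22 at -0.28, and none of these passed. Changes among these RNAs therefore ran in both directions.

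**Figure D2:**
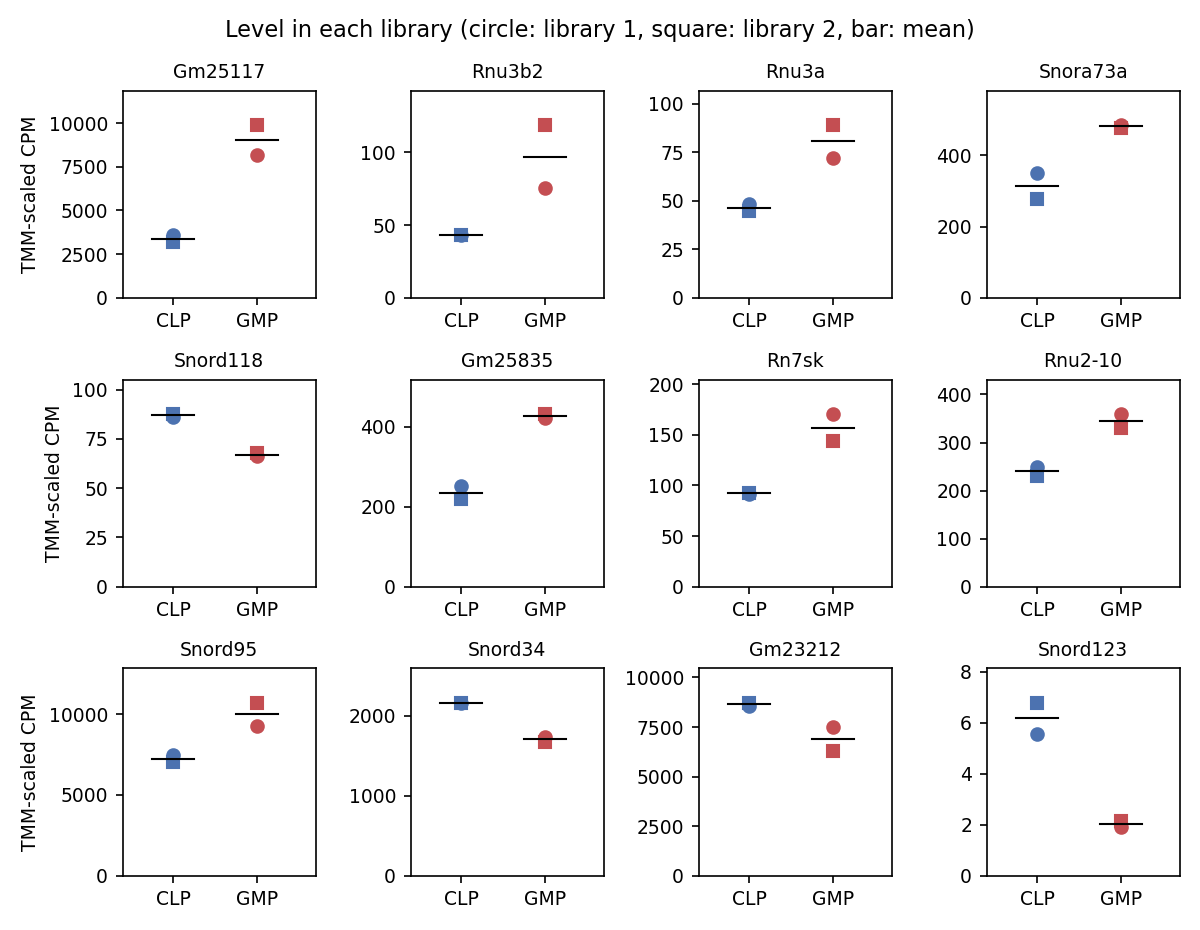
Level (CPM over TMM-scaled library size) of 12 features in the 2 CLP and 2 GMP libraries, with circles for library 1, squares for library 2 and bars for the mean. In each panel both CLP libraries lie on 1 side of both GMP libraries; Rnu3b2 shows the wider spread within GMP (75.3 and 118.8 CPM).

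The difference also moved with the length of the RNA, a relation examined after the data were seen. The libraries were cut from a gel over a size window meant for snoRNAs, per the labels. Over the 240 features of at least 10 CPM that are no miRNA, length and difference had a Spearman correlation of -0.495, as a description across features that share libraries. It was -0.404 among C/D and -0.425 among H/ACA snoRNAs, and -0.024 among spliceosomal RNAs (snRNAs). Of all 749 features 1.34% passed as higher and 5.61% as lower. Under 100 bases, 6 of 144 features passed as higher and 7 as lower, with a median of 0.02. From 100 bases up, 1 of 96 was higher, 32 were lower and the median was -0.31, or -0.24 over the 86 that are not U3. The median was -0.34 against GMP 1 alone and -0.25 against GMP 2 alone, so both GMP libraries showed it. The relation was not particular to these populations: the mean of B and T minus Myeloid had medians of 0.03 under 100 bases and -0.30 from there up. The classes differed, however. From 100 bases up, C/D snoRNAs had a median of 0.40 in that mature contrast and -0.82 between CLP and GMP, and snRNAs -0.82 and -0.20.

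RNAs of at least 100 bases made up 2.65% of the summed level of tested features other than miRNAs and the 45S precursor in CLP and 3.58% in GMP, and 2.25% and 2.56% without Gm25117. With the length trend of each library removed, 44 features passed, 20 higher and 24 lower, and 27 of the 52 were among them. Gm25117 (-1.15, adjusted p = 4.9e-05), Gm25291 (-1.23), Gm25835 (-0.60, adjusted p = 0.00338) and Rnu3b2 (-0.60, adjusted p = 0.0101) still passed as lower, and Snord123 (1.58) and Snord118 (0.62) as higher. Snord13 then passed as higher (0.43, adjusted p = 0.0333). Rnu3a and Snora73a no longer passed (-0.25 and -0.11), nor did Snora44 (-0.51, adjusted p = 0.0857), Snora61 (-0.32, adjusted p = 0.0822), Snora43 (-0.41, adjusted p = 0.072) or Gm24044 (-0.23, adjusted p = 0.405). H/ACA snoRNAs then had 3 lower and 0 higher, and the rRNA-processing snoRNAs 5 lower and 2 higher. The curves were fitted over the same features, with the U3 intervals and Snora73a among them, so part of their own difference was removed with the trend. How much of the difference the recovery of longer inserts accounts for was not tested.

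**Figure D3:**
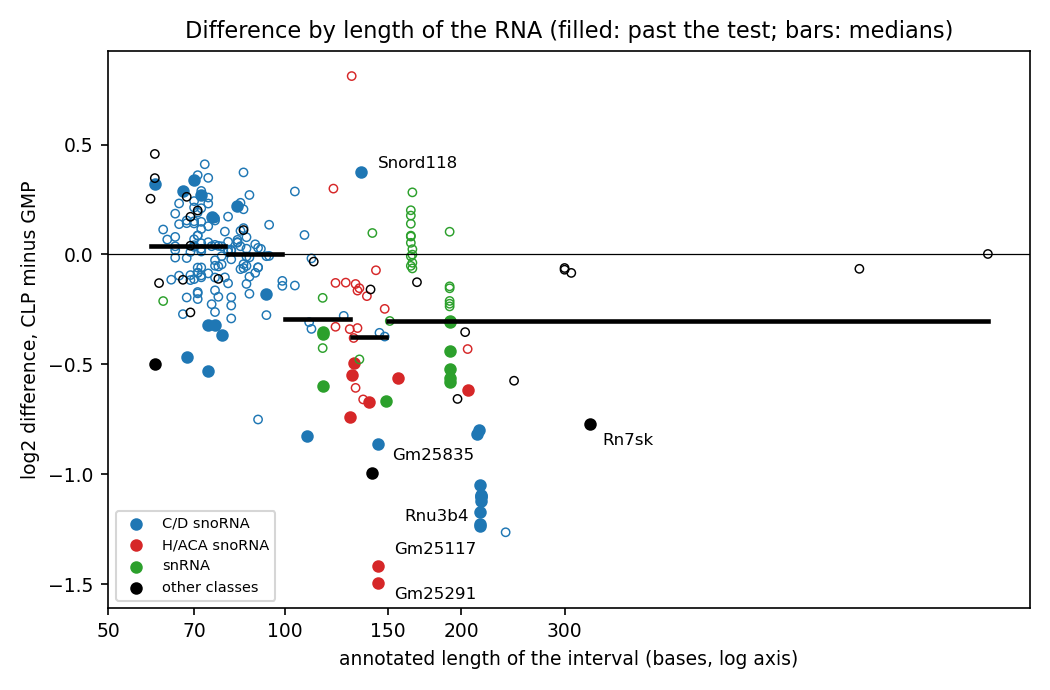
Difference between CLP and GMP (log2, vertical axis) against annotated length (bases, log axis) for 240 features of at least 10 CPM that are no miRNA, filled where the test was passed, with bars for the median of each of 6 length ranges. The medians lie at 0.04, 0.04 and 0.00 below 100 bases and at -0.29, -0.37 and -0.30 from 100 bases up.

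C/D snoRNAs held 91.4% ± 0.424 of counts in CLP and 89.5% ± 2.01 in GMP (SD, n = 2), and their differences lay on both sides of 0. Of 164 tested, 8 (4.88%) passed as higher in CLP and 18 (11%) as lower, beside 1.34% and 5.61% of all features, with 81 above and 83 below 0 and a median of -0.01. The 18 include the 10 U3 intervals. Without CLP 1 or CLP 2 the class had 1 higher and 0 lower each, without GMP 1 it had 18 higher and 13 lower, and without GMP 2 it had 1 and 3. Snord17 of Snx5, chosen after its values were seen, read 426.6 and 322.3 CPM in CLP and 612.4 and 1185 in GMP and did not pass (-1.26, adjusted p = 0.187), with the GMP libraries wide apart.

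Gm25835, a C/D snoRNA in the gene of the translation initiation factor Eif4a1, read 250.8 and 219.6 CPM in CLP and 421.8 and 432.2 in GMP. The groups were well apart (-0.86 ± 0.109 SE, adjusted p = 0.00113). CLP had the lowest and GMP the highest mean of the 8 populations. CLP did not pass against B, T or Myeloid cells (248.5, 254 and 269.7 CPM), nor GMP against CMP, MEP or Erythroid cells (355.7, 340.9 and 372.9 CPM). The call did not hold without CLP 1 or CLP 2 (-0.84 and -0.70, adjusted p = 0.141 and 0.171).

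Snord123, a scarce C/D snoRNA in Snhg18, had 126 and 312 counts in CLP and 28 and 34 in GMP, or 5.56 and 6.77 CPM against 1.91 and 2.16. It was higher in CLP in both libraries (1.60 ± 0.185 SE, adjusted p = 0.000798), and it kept its call without any 1 of the 4 libraries (1.52 to 1.85). It did not pass when only these 4 libraries were fitted (1.69, adjusted p = 0.241). GMP had the lowest mean of the 8 populations and passed as lower than each of the others. CLP did not pass against T (5.68 CPM) or Erythroid cells (5.56 CPM), and B cells were highest (25.2 CPM), with CMP next (17.7 CPM).

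**Figure D4:**
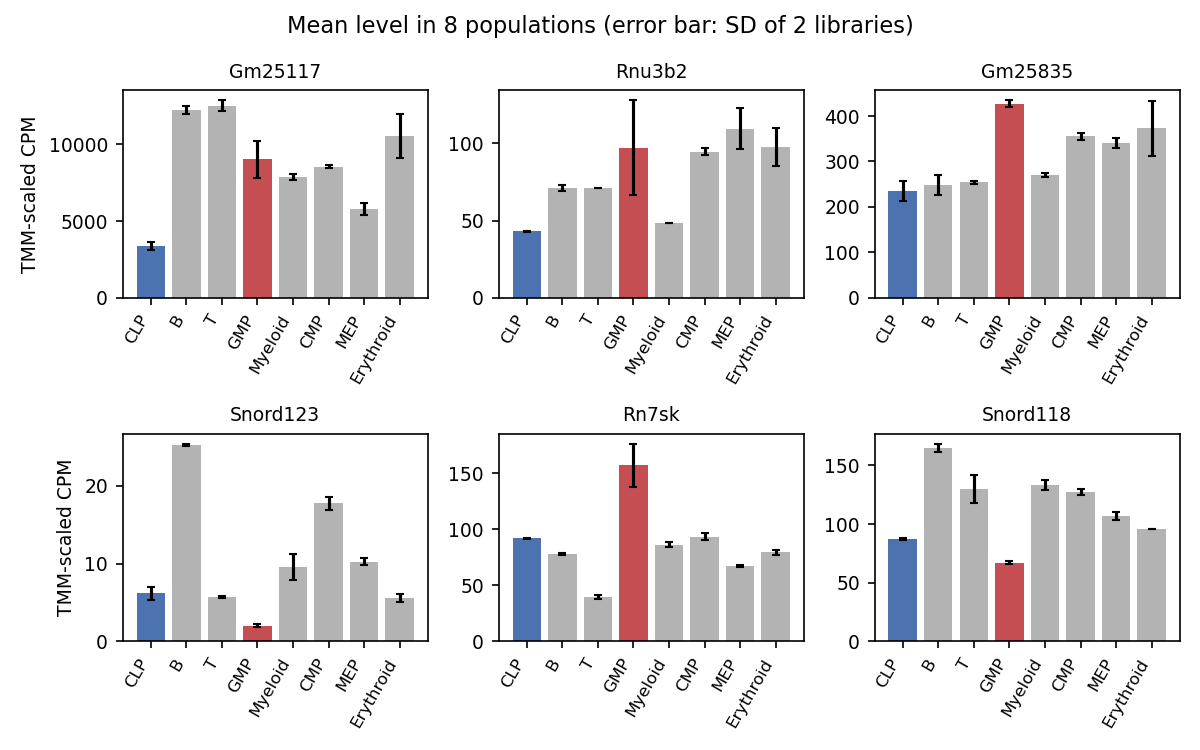
Mean level (CPM over TMM-scaled library size, bars from 0) of 6 features in the 8 populations, with the SD of 2 libraries. CLP has the lowest bar for Gm25117, Rnu3b2 and Gm25835, and GMP the lowest for Snord123 and Snord118 and the highest for Rn7sk.

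The listed host genes gave few calls, all below 2-fold. Of all features 1.34% were called higher in CLP and 5.61% lower. In Rpl13a, a ribosomal protein gene with 4 snoRNAs tested, 2 passed as higher in CLP and 0 as lower. Snord34 read 2159 and 2161 CPM in CLP and 1740 and 1673 in GMP (0.34 ± 0.0545, adjusted p = 0.00497). Snord32a read 2830 and 2773 against 2481 and 2328 (0.22 ± 0.0459, adjusted p = 0.0144), a difference that was 0.39 without GMP 1 and 0.18, and not called, without GMP 2. The CLP pair was above the GMP pair for both. In Gas5, a non-coding host, 1 of 10 passed: Gm23212, at 8561 and 8710 CPM in CLP and 7514 and 6312 in GMP (0.32, adjusted p = 0.0224). Its difference was 0.58 without GMP 1 and 0.21, and not called, without GMP 2. In Snhg1, 1 of 8 passed: Gm25894, at 18430 and 18080 against 16360 and 16070 (0.17, adjusted p = 0.0216), or 0.31 without GMP 1.

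Zfas1 had 1 of 3 lower in CLP, beside 5.61% of all features. The call was Gm25878, at 17160 and 16960 CPM against 19670 and 18920 (-0.18, adjusted p = 0.0388). Without GMP 1 this was -0.03 (adjusted p = 0.879), and the call was lost in 13 of 19 alternatives. Among 52 snoRNAs of the other ribosomal protein genes, 3 (5.77%) passed as lower and 0 as higher, beside 5.61% of all features called lower (10 and 3 at an unadjusted p below 0.05, and 0 either way with DESeq2). They include Gm23130 of Rps12 (-0.32, adjusted p = 0.012) and Gm24044. No snoRNA passed in Nop56, Nop58, Eif4a2, Gnl3 or Ncl, with 5, 4, 5, 3 and 3 tested. At an unadjusted p below 0.05 Nop56 and Nop58 had 1 higher each and Eif4a2 1 lower, and DESeq2 called 2 higher in Nop58 and 1 in Ncl.

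Rack1, the gene of a ribosomal scaffold protein, was the only 1 of 53 hosts with at least 2 tested snoRNAs that held both a call up and a call down. Snord95 is shown with its similar copy Gm25296 for this reason, and Snord95 was chosen after its values were seen. Capitals mark the positions that differ, 1 of them a gap, for an identity of 91.2%. Snord95 is at chr11:48803139-48803206 and Gm25296 at chr11:48800866-48800932, both on the plus strand.
Snord95: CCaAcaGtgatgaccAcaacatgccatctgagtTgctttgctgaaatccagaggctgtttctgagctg
Gm25296: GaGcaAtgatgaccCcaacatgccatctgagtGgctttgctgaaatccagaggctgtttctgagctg
Snord95 read 7435 and 7006 CPM in CLP and 9276 and 10680 in GMP (-0.47 ± 0.0944, adjusted p = 0.0128). Gm25296 read 1153 and 1151 against 977.2 and 906.9 (0.29 ± 0.0653, adjusted p = 0.0212). The ratio of Snord95 to Gm25296, which are of nearly equal length, was 6.45 and 6.09 in CLP and 9.49 and 11.8 in GMP. In the other populations it ranged from 4.68 to 12.8. Summed, they differed by -0.31 (adjusted p = 0.346), and how reads were assigned between them is not given in the sources used here.

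Spliceosomal snRNAs were lower in CLP where they passed. Of 118 intervals tested, 10 (8.47%) were lower and 0 higher, beside 5.61% of all features called lower, and the median of -0.04 lay above the -0.12 of all features. At an unadjusted p below 0.05 there were 16 lower and 0 higher, and DESeq2 called 3 lower and 1 higher. Rnu2-10, a copy of U2, which pairs with the intron branch point, read 249.4 and 231.2 CPM in CLP and 359.3 and 329.3 in GMP (-0.52 ± 0.0834, adjusted p = 0.00497). Gm24950, whose sequence is identical to it, read 254.3 and 230.7 against 384 and 340 (-0.58 ± 0.0903, adjusted p = 0.00497). Reads cannot be told apart between these copies, and the 15 intervals of the U2 family summed differed by -0.34 (adjusted p = 0.222).

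Rnu5g, a copy of U5, which holds the exons together during splicing, differed by -0.35 (adjusted p = 0.0323). It was chosen after its values were seen. The 10 intervals of the U5 family summed differed by -0.30 (adjusted p = 0.336). With families summed, no snRNA unit passed in either direction. None of the 4 named U1 intervals passed (-0.06 to 0.28), nor did Rnu7, Rnu11 or Rnu12 (-0.30 to 0.07). The 10 lower calls fell to 0 without CLP 1, CLP 2 or GMP 1, to 4 without GMP 2 and to 0 with the length trend removed, where 3 others passed as higher.

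Rn7sk, the 7SK RNA that holds the transcription elongation factor P-TEFb inactive, read 91.8 and 92.3 CPM in CLP and 170.5 and 143.6 in GMP. It was lower in both CLP libraries (-0.77 ± 0.0975, adjusted p = 0.00113), and GMP passed as higher than each of the other 7 populations, whose means ran from 39.4 in T to 93.4 in CMP. Rn7sk, of 331 bases, was at -0.14 with the length trend removed (adjusted p = 0.861), and it did not pass without CLP 1 or CLP 2 (adjusted p = 0.141 and 0.171). The length curve includes Rn7sk itself and rests on few RNAs of its length, so how much of its difference goes with length was not tested. The other 6 housekeeping RNAs did not pass. Rn7s1 and Rn7s2, of the signal recognition particle and 300 bases each, were at -0.07 and -0.06, and the Y RNAs Rny1 and Rny3 at -0.03 and 0.12. The vault RNA Vaultrc5 was at -0.48 and the telomerase RNA Terc at -0.94 (adjusted p = 0.678).

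The scaRNAs Scarna10 and Scarna9, which guide modification of snRNAs in Cajal bodies, were at -0.23 and -0.07 and did not pass. Among 21 mitochondrial tRNAs 1 passed as lower (4.76%), beside 5.61% of all features. It was mt-Tn, with 43 and 84 counts in CLP and 60 and 53 in GMP, lower in CLP after scaling (adjusted p = 0.0339). Mir1949, which the annotation lists as a snoRNA and which fits neither class, read 10.1 and 8.69 CPM in CLP and 15.8 and 21.5 in GMP (-0.99, adjusted p = 0.0155). The most abundant features showed little difference. Gm26224 of Gas5 was at 0.06, Snord49a at -0.10, Snord2 at -0.12, the 45S precursor at -0.25 and Gm23301 at -0.01, and none passed. Without GMP 1, Gm26224 was at 0.27 and passed (adjusted p = 0.00807).

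MiRNAs gave 2 calls among 203 tested, both higher in CLP (0.985%, beside 1.34% of all features) and both scarce. Their mature forms, from RefSeq on GRCm38.p6, are shown because those of Mir100 and Mir99a share a seed, bases 2 to 8, marked in capitals.
mmu-miR-10b-5p: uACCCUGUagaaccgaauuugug
mmu-miR-100-5p: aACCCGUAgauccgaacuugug
mmu-miR-99a-5p: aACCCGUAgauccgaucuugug
Mir10b, which lies beside Hox genes, had 16 and 12 counts in CLP and 0 and 0 in GMP (adjusted p = 0.0204). That is 0.776 and 0.287 CPM of the library total, where 3 counts in a GMP library stand for 0.212 and 0.207 CPM. Mir100, a miRNA of early progenitors, had 12 and 38 counts in CLP and 0 and 2 in GMP (adjusted p = 0.0381). Both calls were lost when any 1 of the 4 libraries was left out.

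Among the marker miRNAs 1 call was made between CLP and GMP, beside 6.94% of all features called. These shares were not tested against each other. Of 7 lymphoid, 3 myeloid, 2 erythroid and 8 stem cell markers tested, 1 passed (Mir100); at an unadjusted p below 0.05 it was also the only one, and DESeq2 called none. With the miRNA share of each library as a covariate, Mir451a/Mir451b (0.60, adjusted p = 0.00038) and Mir125a (adjusted p = 0.0472) passed as higher in CLP too. That share is the sum of the miRNA counts themselves. These values are thus relative to the miRNAs as a whole and do not show a higher level in CLP. Mir223, a miRNA of granulocytes, read 272.5 and 295 CPM in CLP and 267.7 and 423.5 in GMP (-0.28, adjusted p = 0.827), against a mean of 920.8 in Myeloid cells. Mir150, a miRNA of mature lymphocytes, read 10.5 and 9.9 CPM in CLP and 7.76 and 11.8 in GMP (0.06, adjusted p = 0.972), against 81.8 in B and 272.2 in T cells. GMP 1 and GMP 2 lay on either side of the CLP libraries for the summed lymphoid markers (63.8 and 148.9 CPM of the total, against 88.4 and 108.9 in CLP). The summed myeloid markers likewise ran from 2611 to 6164 in GMP and from 3457 to 3765 in CLP, and the stem cell markers from 168.9 to 377.9 and from 234.4 to 259.5. The erythroid and megakaryocyte markers did not overlap, at 136.7 and 148 CPM in CLP and 69.9 and 129.1 in GMP. The same held for 41.1% of all features, and neither marker passed in the main fit (Mir144 at 0.15 and Mir451a/Mir451b at 0.48).

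Markers of cells outside blood summed to 4.37 and 6.03 CPM in CLP and 3.53 and 8.68 in GMP. The miRNA families gave no calls: let-7 (11 tested), Mir17-92 (15), Mir15/16 (5), Mir23/24/27 (6), Mir29 (4), Mir30 (5) and Mir181 (6) had 0 each, also at an unadjusted p below 0.05 and with DESeq2. With miRNA share as a covariate, Mir30a (0.36, adjusted p = 0.0117), Mir30b (0.62, adjusted p = 0.000513) and Mir30c-2 (0.44, adjusted p = 0.00353) passed as higher in CLP. These values too are relative to the miRNAs as a whole. In the main fit the family medians ran from -0.55 in the Mir23/24/27 clusters to 0.11 in the Mir30 family.

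The progenitor difference was then set beside that of mature cells, the mean of B and T against Myeloid, in which no library is shared. There 260 of 749 features passed (34.7%), most of them lower in B and T. Of the 52 features that differed between CLP and GMP, 35 also passed there, 22 in the same direction and 13 in the opposite one. The 52 include overlapping or similar copies, such as the Rnu3b intervals and Gm25117 with Gm25291, so these are not counts of separate changes. The difference between the progenitor and the mature contrast passed for 134 features (17.9%), 68 higher (9.08%) and 66 lower (8.81%). Among them were 29 of the 52. This test holds the same CLP minus GMP difference by which the 52 were chosen, so their share among the 134 is no separate support. With library totals these were 242 and 22.

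Gm25117 was lower in CLP than in GMP but higher in B and T than in Myeloid cells (0.65 ± 0.0912, adjusted p = 0.00027), and the contrasts differed by -2.07 (adjusted p = 3.28e-06). Rnu3b2 did the same (0.55 in mature cells, adjusted p = 0.0192; contrast difference -1.73, adjusted p = 0.00065). Snord95 was likewise higher in B and T (0.50, adjusted p = 0.000815; contrast difference -0.97). Gm25835 showed no call among mature cells (-0.10, adjusted p = 0.434), and its contrasts differed by -0.76 (adjusted p = 0.00395). Snord34 and Snord32a were higher on the lymphoid side in both (0.25 and 0.49 in mature cells). Rn7sk, Rnu2-10 and Gm24950 were lower on it in both (-0.64, -0.59 and -0.59 in mature cells).

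Other features differed between mature cells and did not pass between CLP and GMP. Snord57 of Nop56 was at 0.05 between progenitors and at 1.04 between mature cells, a contrast difference of -0.99 (adjusted p = 1.74e-06), and Snord68 of Rpl13 at -0.05 and 0.89 (-0.95, adjusted p = 2.17e-06). Gm24916 of Gnl3 was at 0.10 and -1.09 (1.19, adjusted p = 3.98e-05), and Snord78 of Gas5 at 0.23 and -0.91 (1.14, adjusted p = 0.000278).

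**Figure D5:**
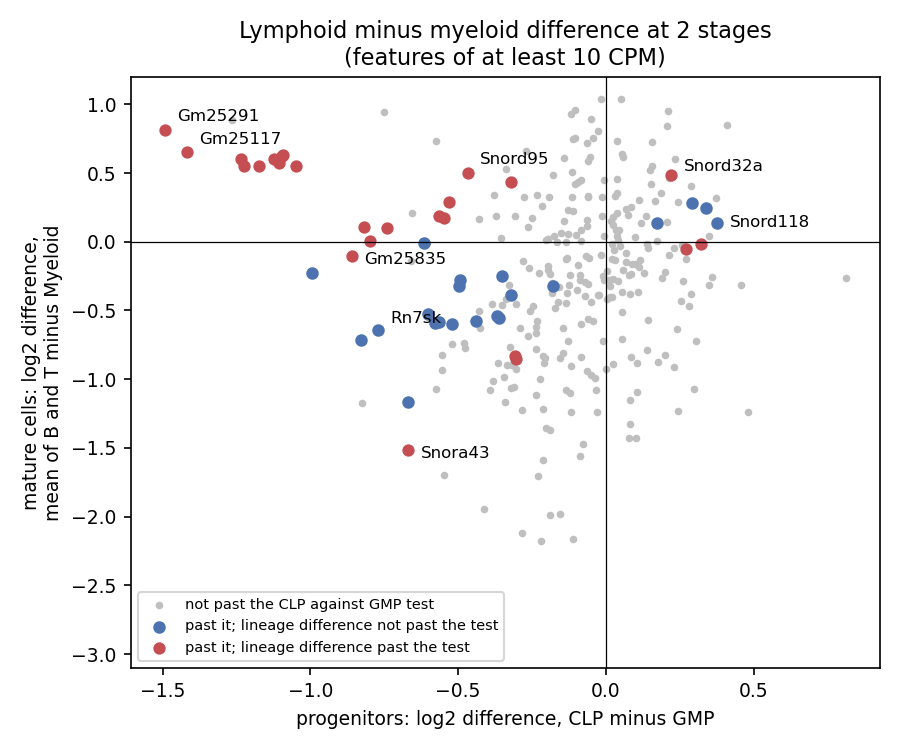
Difference between CLP and GMP (log2, horizontal axis) against that between the mean of B and T and Myeloid cells (log2, vertical axis) for features of at least 10 CPM. Gm25117 lies at -1.42 and 0.65, where the signs are opposite, and Snord57 at 0.05 and 1.04.

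SnoRNAs of the imprinted Dlk1-Gtl2 locus, which the series title names, were too scarce to test. The 8 listed intervals held 20 and 24 counts in CLP and 6 and 6 in GMP. That is 0.971 (exact Poisson interval on read pairs 0.465 to 1.78) and 0.574 (0.297 to 1) CPM in CLP, and 0.424 (0.0874 to 1.24) and 0.413 (0.0852 to 1.21) in GMP. The intervals, which cover counting error only, overlap, and a difference was not tested. Snrpn-Ube3a snoRNAs, of another imprinted locus, summed to 1.84 and 1.24 CPM in CLP and 1.41 and 1.52 in GMP.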

How the data were processed

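Small RNA was sequenced from 16 libraries of 8 sorted populations, 2 libraries each. The deposited values are raw counts per small RNA interval, made by the authors with Trimmomatic 0.38 and Bowtie2 2.3.4.1 on GRCm38, per the submitters' processing notes. The counter, annotation and use of strand are not given in the sources used here. Even numbers made up 89.0% to 93.2% of values, as if both mates had been counted. Intervals not listed in a library were set to 0. Of 1885 intervals, 1884 matched GENCODE M21 by position, and 1 was taken as the 45S precursor. Similar copies had at least 90% identity over 90% of the length (blastn 2.17.0).

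Counts were tested with edgeR 4.0.16 (R 4.3.3): TMM scaling, filterByExpr at a minimum count of 10, 1 mean per population over all 16 libraries (8 residual degrees of freedom), and a threshold of 0.05. The spread is thus shared over populations, although the GMP libraries differed more than the CLP libraries. SE is the difference divided by the square root of F. "Higher" and "lower" name a call past the threshold.

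Features named were the 12 largest calls per direction at 10 CPM or more, the 3 smallest p values per class, all processing snoRNAs, housekeeping RNAs, scaRNAs and markers, calls of listed host genes, the 5 most abundant, the 3 leading contrast differences per direction, and extremes of miRNA families. Members and lists were chosen with earlier results of these data known. Alternatives included DESeq2 1.42.0, other scalings and filters, and each library left out. Summed families, miRNA share as a covariate, miRNAs left out and the length trend (a loess curve per library) were added after the data were seen. The test was run on simulated data with the same spread in every library and independent features. That does not cover the wide GMP pair or similar copies. A call of listed host genes is not reported here.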

Additional observations from a re-analysis of the deposited data

Results flagged for a closer look

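For the features that follow, the difference between CLP and GMP departed from that between mature lymphoid and Myeloid cells, by edgeR's test of the contrast difference. They had been named for a large CLP against GMP call or for a small p value in this same test. The p values are therefore a description and no separate support. Values are the progenitor minus the mature difference on the log2 scale.

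More negative in progenitors were Gm25117 (-2.07, adjusted p = 3.28e-06), its copy Gm25291 (-2.31, adjusted p = 4.48e-05) and Gm25835 (-0.76, adjusted p = 0.00395). The U3 intervals were as well: Rnu3b1 at -1.60 and -1.72, Rnu3b2 at -1.73 and -1.68, Rnu3b3 at -1.77 and -1.72, and Rnu3b4 at -1.83 and -1.73, with adjusted p values from 0.00065 to 0.0025. These 8 overlap or are similar copies, so they are not independent. Snord57 (-0.99, adjusted p = 1.74e-06), Snord68 (-0.95, adjusted p = 2.17e-06) and Snord32a (-0.27, adjusted p = 0.0112) were also on this side. They were higher in mature B and T cells than in Myeloid cells, and of the 3 only Snord32a passed between CLP and GMP, at a smaller difference.

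More positive in progenitors were Gm24916 (1.19, adjusted p = 3.98e-05), Snord78 (1.14, adjusted p = 0.000278) and Gm25939 (0.77, adjusted p = 0.000445), which were lower in mature B and T cells than in Myeloid cells. Gm23212 (0.34, adjusted p = 0.0332) and Snord49b (0.32, adjusted p = 0.0205) were called between CLP and GMP and not among mature cells.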

How the results depend on the processing

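Depth limits the scarce features, and 2 libraries per population limit the rest. Of 2171 values of named features under alternatives, 1873 kept direction and call, 284 lost and 12 gained a call, and 2 changed sign: Gm25296 (-0.31, summed with Snord95) and Gm23971 (0.0315, length trend removed). Per setting, the calls, with higher and lower in CLP, were 19 (6 and 13) with RLE factors, 62 (23 and 39) with library totals and 56 (21 and 35) with TMM from snoRNAs and scaRNAs. They were 17 (4 and 13) with no filter, 32 (4 and 28) at 10 CPM, and 46 (23 and 23) with DESeq2, which gave no adjusted p for 334 features. Fitting only the libraries compared gave 1 (0 and 1; 58 at an unadjusted p below 0.05), and leaving out similar copies 1 (1 and 0; 33 unadjusted). Summed families gave 4 (1 and 3), miRNA share as a covariate 102 (30 and 72), miRNAs left out 90 (32 and 58) and the length trend removed 44 (20 and 24). The cause of these shifts was not tested. Leaving out single libraries gave 2 to 38 calls, 1 to 19 higher and 1 to 19 lower.

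The replicate block gave 49 calls (9 and 40), all among the 52, and removed 1 of 2 miRNA calls. The labels do not say that numbers pair libraries. The difference of library 1 from library 2 had a correlation of 0.359 between CLP and GMP over 312 features. With the other populations it ran from -0.779 (MEP) to 0.807 (Erythroid) for GMP. For CLP it ran from -0.424 (MEP) to 0.48 (Erythroid), so equal numbers did not go with 1 shared deviation.

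The 134 contrast differences (68 higher, 66 lower) became 264 (242 and 22) with library totals, 38 (15 and 23) without similar copies, 49 (20 and 29) with summed families and 207 (115 lower) with the miRNA covariate. RLE gave 39 higher and no filter 33 lower. Leaving out single libraries gave 54 to 111, 23 to 66 higher and 31 to 60 lower. C/D snoRNAs held 97.7% in CLP and 96.7% in GMP without the 45S precursor, and 92.3% in CLP without miRNAs. MiRNAs held 1.05% in CLP without the 45S precursor.

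By list, C/D snoRNAs (8 higher, 18 lower) had 15 higher with DESeq2, 17 with TMM from snoRNAs and scaRNAs, 20 with totals, 13 (and 31 lower) with the miRNA covariate, 29 with miRNAs left out and 14 with the length trend removed. They had 3 and 9 with RLE, 2 and 10 with no filter, 3 higher at 10 CPM, 1 and 2 with families, 0 and 0 in only the libraries compared, and 1 and 0 without similar copies. H/ACA snoRNAs (0 and 10) had 1 and 5 with DESeq2, 1 higher with the covariate, and fewer lower calls with RLE (3), 10 CPM (6), families (1), the length trend (3), no filter (2), only the libraries compared (1) and no similar copies (0). snRNAs (0 and 10) had 1 and 3 with DESeq2, 3 and 0 with the length trend, 5 lower at 10 CPM, 16 with the covariate, and 0 with RLE, families, no filter, only the libraries compared or no similar copies. Processing snoRNAs (1 and 11) had 0 and 1 with families, 2 and 5 with the length trend, 2 higher with miRNAs left out, 0 higher with no filter, and 0 and 0 in only the libraries compared; without similar copies 0 were higher or lower. MiRNAs (2 and 0) had 12 and 4 with the covariate, 1 lower with no filter, 1 higher with DESeq2, RLE, halved counts or the block, and 0 at 10 CPM, with families, in only the libraries compared or without similar copies. Leaving out single libraries gave C/D 1 to 18 higher and 0 to 13 lower, H/ACA 0 to 1 and 1 to 3, snRNAs 0 to 4 lower, processing snoRNAs 0 to 1 and 0 to 10, and miRNAs 0 higher.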
